A study of Mus musculus with 2 samples.

Results

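The glutathione peroxidases of 4T1 cells were followed from PBS to potassium oxalate. The 4T1 line comes from a mammary tumour of a BALB/c mouse and seeds metastases in the lung. The family members described are Gpx1, Gpx2, Gpx3, Gpx4, Gpx7 and Gpx8, 6 of the 21911 genes in the table. They were taken by name, and the family was chosen by the FPKM of Gpx1 in these libraries, about 3-fold lower with oxalate. That difference is therefore given as a description and not as a result of a test.

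The cells of the PBS group and of the oxalate group were both kept for 48 h, and each group is 1 library. The agent was potassium oxalate, at 20 µM by the sample's treatment label and by the methods of the study, and at 20 mM by the treatment protocol in the labels. Polyadenylated RNA was copied with random primers and sequenced, and each gene has 1 FPKM value per library, that is, fragments scaled to the length of the transcript and to the size of the library. The epithelial markers Epcam, Krt8, Krt18, Krt19 and Cdh1 lay between 125.33 and 429.31 FPKM. Of the leukocyte markers Ptprc, Cd3e and Itgam were listed at 0 in both libraries, and Csf1r had 4.93 FPKM under PBS and 5.18 under oxalate. The fibroblast markers Pdgfra, Pdgfrb, Dcn and Lum and the endothelial markers Pecam1, Cdh5, Kdr and Tek were at 1.93 FPKM or less. With 1 library per group no difference has a replicate check, and no test of the treatment could be made.

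Glutathione peroxidases reduce hydrogen peroxide or lipid hydroperoxides to water or alcohols, mostly with electrons from glutathione. Gpx1, the abundant cytosolic form, Gpx2, the form of the gut epithelium, Gpx3, the secreted plasma form, and Gpx4, which reduces peroxidized phospholipids in membranes and restrains ferroptosis, carry selenocysteine in the active site. Selenocysteine is read from a UGA codon that elsewhere ends translation. Gpx7 and Gpx8 reside in the endoplasmic reticulum and use cysteine instead. The amount of Gpx1 mRNA is known to follow the supply of selenium more closely than that of Gpx4 mRNA.

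The active-site codon itself separates the members into these kinds, while the likeness of the surrounding bases to Gpx1 does not. For each member, 45 bases of the principal coding transcript of GENCODE M21 (GRCm38) are shown from 5 codons before to 9 codons after the active-site codon, which is in capitals.
Gpx1: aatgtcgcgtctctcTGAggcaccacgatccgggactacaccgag
Gpx2: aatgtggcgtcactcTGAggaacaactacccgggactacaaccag
Gpx3: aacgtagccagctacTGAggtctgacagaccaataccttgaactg
Gpx4: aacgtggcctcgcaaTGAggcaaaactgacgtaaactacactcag
Gpx7: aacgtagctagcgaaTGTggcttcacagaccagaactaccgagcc
Gpx8: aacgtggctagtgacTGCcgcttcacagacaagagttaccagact
The codon is TGA in Gpx1, Gpx2, Gpx3 and Gpx4 and a cysteine codon in Gpx7 and Gpx8. In Gpx1 it is codon 47 of 201, on the plus strand at chr9:108339451-108339453. In Gpx4 it is codon 73 of 197, on the plus strand at chr10:80054737-80054739, and in Gpx8 codon 79 of 209, on the minus strand at chr13:113045661-113045663. Gpx2 shared 37 of the 45 bases with Gpx1, Gpx4 shared 28, Gpx7 23, Gpx8 20 and Gpx3 19.

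Gpx1 (ENSMUSG00000063856, chr9:108338903-108340343) was at 396.61 FPKM with PBS and at 123.5 FPKM with oxalate. The oxalate library thus held 31.1% of the PBS level, a 3.21-fold lower value. On the scale of log2((oxalate + 1)/(PBS + 1)), used for all differences here, this was -1.68. The pseudocount of 1 hardly matters at this level, but it understates the change of low genes. In the order of FPKM, Gpx1 was gene 182 of 21911 with PBS and gene 759 with oxalate. From the spacing of low FPKM values, 1 read in a transcript of 1 kb was worth 0.0176 FPKM with PBS and 0.0274 with oxalate, which corresponds to about 56700000 and 36500000 reads or fragments. At these depths Gpx1 rested on an estimated 18837 reads with PBS and 3770 with oxalate. The exact (Clopper-Pearson) 95% interval of its log2 ratio, from these estimated reads, was -1.73 to -1.63. Such intervals cover counting error only and leave out the spread between cultures, which was not measured. They also take the same transcript length in both libraries, so a change in the share of transcript forms is not covered.

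Gpx4 (ENSMUSG00000075706, chr10:80047166-80056439) was at 292.08 FPKM in the PBS library and at 285.4 FPKM in the oxalate library. The log2 difference was -0.033, with a counting interval of -0.071 to 0.0040 that includes 0, and it was gene 253 by FPKM in both libraries. Gpx8 (ENSMUSG00000021760, chr13:113042753-113046410) had 24.85 FPKM under PBS and 23.11 under oxalate. Its log2 difference was -0.10 and the counting interval ran from -0.24 to 0.026. Gpx4 and Gpx8 thus differed between the libraries by less than 1.2-fold, as did 90.1% of the 10267 genes whose mean over both libraries was 1 FPKM or more, the set called expressed here.

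**Figure D1:**
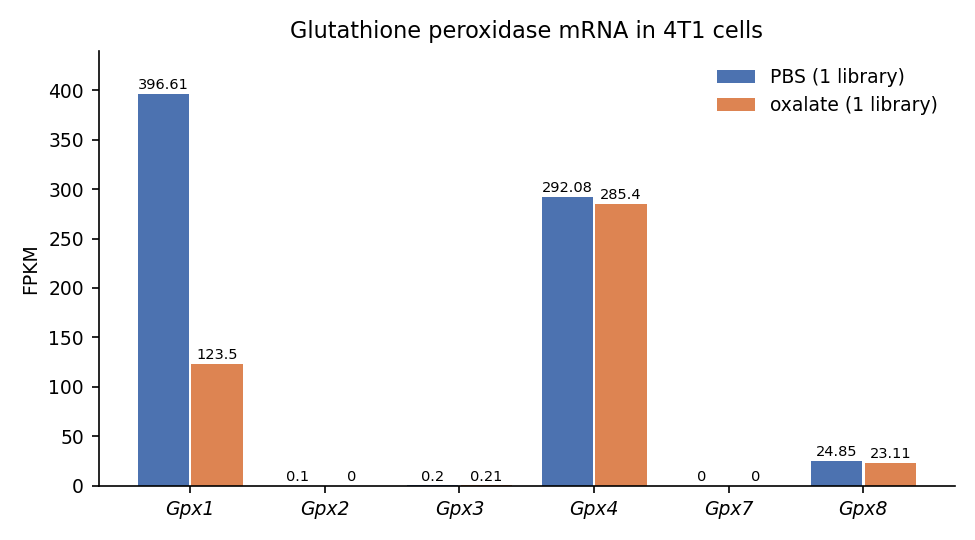
FPKM (vertical axis, from 0) of the 6 glutathione peroxidases in the PBS library (blue) and the oxalate library (orange), 1 library per bar. The Gpx1 bar is at 396.61 with PBS and at 123.5 with oxalate, while the bars of Gpx4 and Gpx8 are nearly level.

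The other members were at or near 0. Gpx3 (ENSMUSG00000018339, chr11:54902453-54910377) had 0.2 FPKM under PBS and 0.21 under oxalate, an estimated 12 and 8 reads. The counting interval of its log2 ratio, -1.44 to 1.46, reaches past 2-fold on both sides. Gpx2 (ENSMUSG00000042808, chr12:76792333-76795554) was at 0.1 FPKM with PBS, an estimated 6 reads, and was listed at 0 with oxalate, where 3 reads would have given 0.0771 FPKM. Its log2 difference of -0.14 rests on the pseudocount and is no measure of a fold. Gpx7 (ENSMUSG00000028597, chr4:108400390-108406961) was listed at 0 in both libraries, where 3 reads would have given 0.0653 FPKM with PBS and 0.102 with oxalate. Gpx5 and Gpx6, the remaining family genes in the table, were also listed at 0 in both. Of the glutathione peroxidases of the endoplasmic reticulum only Gpx8 was therefore seen.

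FPKM is scaled to transcript length, so that levels of different members can be set side by side within a library, although the length the authors used for each gene was not stated and the longest coding form of Gpx1 is 1.64 times the shortest. With PBS the order of FPKM was Gpx1, Gpx4, Gpx8, Gpx3 and Gpx2. With oxalate it was Gpx4, Gpx1, Gpx8 and Gpx3. The level of Gpx1 was 1.36 times that of Gpx4 with PBS and 0.433 times that of Gpx4 with oxalate. The FPKM of the members summed to 713.84 with PBS and 432.22 with oxalate, of which Gpx1 made up 55.6% and 28.6%. Without Gpx1 the sums were 317.23 and 308.72 FPKM. With no replicates, the spread that would show which neighbours in this order differ is not known.

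Of the 3 expressed members, Gpx1 was at least 2-fold lower with oxalate and none was at least 2-fold higher. Of all expressed genes, 0.36% were at least 2-fold lower and 0.292% at least 2-fold higher, 0.653% in all. Since the family was picked for this contrast, nothing is read from its count. Gpx1 had the 11th lowest log2 difference of these genes. With the mean required to reach 5 FPKM, 0.592% of 8284 genes differed at least 2-fold and 0.326% were lower. Where it had to reach 100 FPKM, 4 of 967 genes differed at least 2-fold (0.414%). Gpx1 was the 1 that was lower (0.103%), and Emp1, Atp6v0c and Rtn4 were higher.

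**Figure D2:**
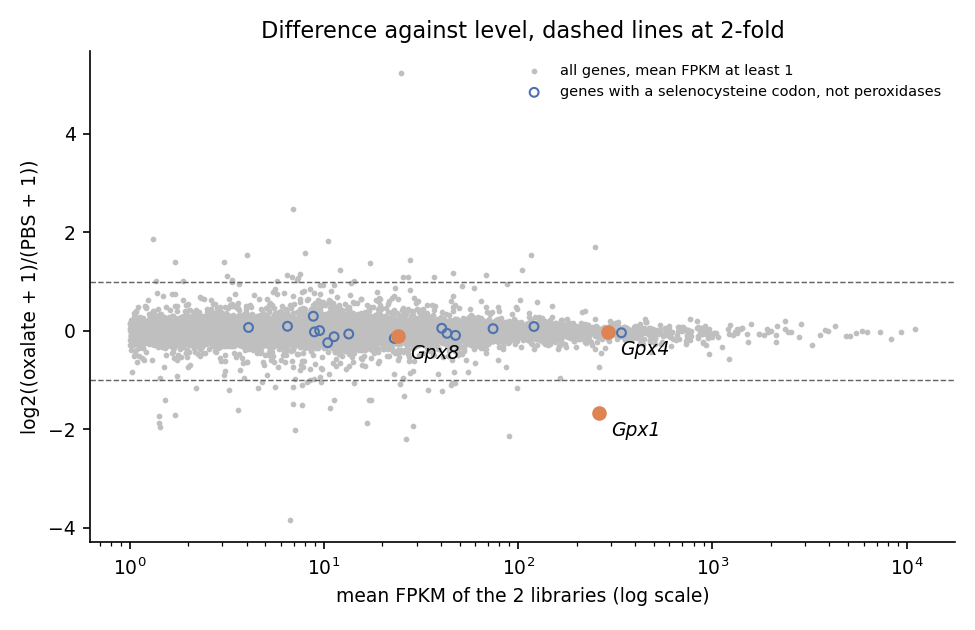
Mean FPKM of the 2 libraries (horizontal, log scale) against log2((oxalate + 1)/(PBS + 1)) for the 10267 expressed genes (grey points), the 15 other genes with an annotated selenocysteine codon (open blue circles) and Gpx1, Gpx4 and Gpx8 (orange). Dashed lines mark 2-fold; Gpx1 lies at -1.68 and Gpx4, at a like level, at -0.033.

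Gpx1 has 4 annotated transcripts, of which 3 are coding. Gpx1-201 (1072 nt, 2 exons) is the principal form, and Gpx1-202 (787 nt) and Gpx1-204 (653 nt) lie wholly within its exons. All 3 share 650 bases, or 60.6% of Gpx1-201, and 282 bases belong to Gpx1-201 alone among the coding forms. Gpx1-203 (900 nt) keeps the intron. The selenocysteine codon is annotated in Gpx1-201, whereas the reading frames given for Gpx1-202 and Gpx1-204 begin behind it, at position 108339481. Gpx1-202 also skips 3 bases at the start of the last exon, which are in capitals in the 30 bases around the splice junction (plus strand, from position 108339558 to 108339777 or 108339780). They are shown because the 3 bases set Gpx1-202 apart from both other coding forms.
Gpx1-201: cagttcggacaccagGAGaatggcaagaat
Gpx1-202: cagttcggacaccagaatggcaagaatgaa
Gpx1-204: cagttcggacaccagGAGaatggcaagaat
The table gives 1 value per gene, so the share of each form in the 2 libraries is not known. The share of genes past 2-fold in these libraries was 0.153% of 2613 genes with 1 coding transcript, 0.694% of 2450 with 2 and 0.974% of 1746 with 3, among expressed genes. Genes with more coding transcripts were not counted separately, and the share over all expressed genes was 0.653%. The part of the annotated forms in the Gpx1 difference was not tested. Gpx4 also has 3 coding transcripts, all with the selenocysteine codon, and Gpx8 has 2.

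**Figure D3:**
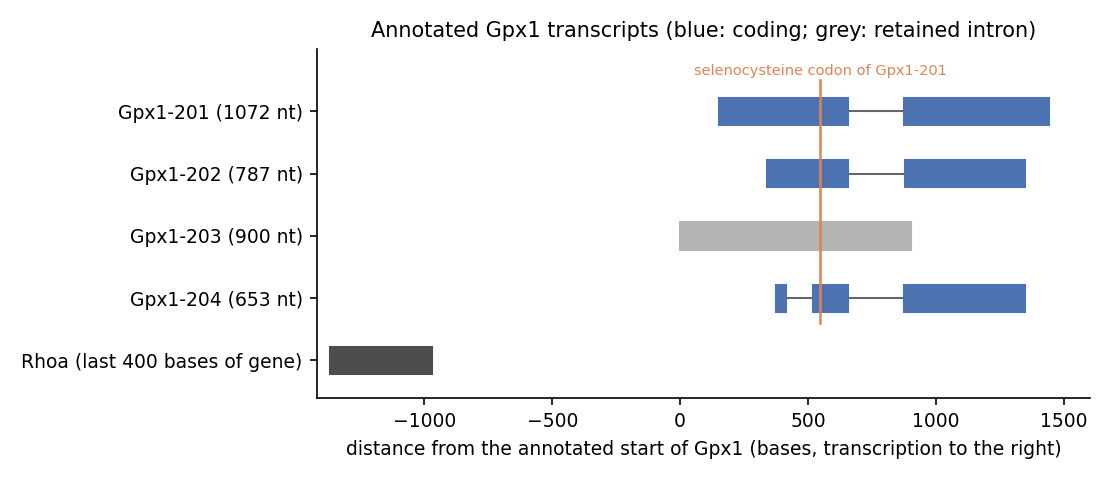
Annotated transcripts of Gpx1 by distance in bases from the start of the gene (boxes are exons, blue for coding transcripts and grey for the retained intron), with the last 400 bases of the Rhoa gene in dark grey. The orange line is the selenocysteine codon of Gpx1-201; all 4 transcripts cover it with an exon, and Rhoa ends 968 bases before Gpx1 begins.

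No annotated gene overlaps Gpx1. Rhoa, which encodes a small GTPase of the actin cytoskeleton, ends 968 bases upstream on the same strand and had 321.74 FPKM under PBS and 310.45 under oxalate. Usp4, a ubiquitin-specific protease, begins 7509 bases downstream and was at 34.02 and 36.44 FPKM. The neighbours of Gpx1 thus did not share its difference. The antisense gene Gm37401, which overlaps the end of Rhoa and stops 629 bases before Gpx1, has no row in the table. Gpx8 overlaps Cdc20b on the opposite strand, and Cdc20b was listed at 0 in both libraries. Gpx2 lies within Fntb on the opposite strand. Fntb, the beta subunit of farnesyltransferase, had 13.14 FPKM under PBS and 13.64 under oxalate, so the few reads of Gpx2 are uncertain, since it is not stated whether the reads were counted by strand.

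Exact matches to transcripts of other annotated genes were searched, while unannotated and near-identical copies were not examined. None of the 1023 stretches of 50 bases in Gpx1-201 occurred in an annotated transcript of another gene. In Gpx4-202, 68.9% of 910 such stretches occurred in other genes, all of them in the pseudogene Gpx4-ps2 and 75 also in AC122253.3. In Gpx2-201, 18.9% of 1018 occurred in the pseudogene Gpx2-ps1. None of these pseudogenes has a row in the table, so how such reads were assigned is not known, and the level of Gpx4 is uncertain to that extent. For Gpx3, Gpx7 and Gpx8 no stretch was shared.

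The other genes with a selenocysteine codon were compared with Gpx1. GENCODE M21 marks such a codon in 24 genes, all of them in the table, and 17 were expressed. Gpx1 had the lowest log2 difference of the 17. The 15 that are not peroxidases ran from -0.24 (Selenom) to 0.30 (Txnrd2), with 7 higher and 8 lower and a median of -0.022. None differed 1.5-fold, against 1.99% of all expressed genes. Selenof, a protein of the endoplasmic reticulum, was the most abundant at 344.9 FPKM with PBS and 335.61 with oxalate. Txnrd1, the cytosolic thioredoxin reductase, was at 116.92 and 124.3 FPKM. Selenow, a small selenoprotein, was at 73.12 and 75.39 FPKM. Abundant mRNAs with the same kind of codon, that of Gpx4 included, were thus nearly level.

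The 11 genes listed for the supply of selenium and for making and inserting selenocysteine were all expressed. With oxalate 6 were higher and 5 lower, from -0.15 to 0.35, with a median of 0.035 against 0.0031 over all genes. Sars, which charges the selenocysteine tRNA with serine, had 106.62 FPKM under PBS and 106.36 under oxalate. Sephs2, which activates selenium and is a selenoprotein itself, was at 43.79 and 42.24 FPKM. Lrp8, a receptor for selenoprotein P, was at 27.36 and 30.38 FPKM. None of the 11 differed 1.5-fold.

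Genes that supply, build and recycle glutathione were 17 in number, and 14 were expressed. Higher values with oxalate were seen in 7 and lower ones in 7, with a median log2 difference of 0.020 and a range from -0.30 to 0.38. Pgd and G6pdx, which make NADPH in the pentose phosphate pathway, were at 170.68 and 167.21 FPKM with PBS and at 175.83 and 174.27 with oxalate. Slc3a2, a subunit of the cystine carrier, had 145.6 FPKM under PBS and 131.47 under oxalate. None differed 1.5-fold.

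Of the 17 other enzymes and carriers that remove peroxide or superoxide, 16 were expressed, and 12 were lower and 4 higher, against 49.0% lower over all genes, and the median was -0.027. The range was -0.29 to 0.53, and the gene farthest from 0, Txn2, the mitochondrial thioredoxin, was higher, at 38.72 FPKM with PBS and 56.26 with oxalate. Prdx1, a cytosolic peroxiredoxin, had 307.35 FPKM under PBS and 275.86 under oxalate. Sod1, the copper-zinc superoxide dismutase, was at 283.39 and 254.21 FPKM. Prdx2, another cytosolic peroxiredoxin, was at 149.03 and 148.61 FPKM. None of the 16 differed 1.5-fold.

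Of 17 sources of peroxide, such as NADPH oxidases, 4 were expressed, and 8 were listed at 0 in both libraries. All 4 were higher with oxalate, by 0.032 to 0.31 on the log2 scale. Xdh, xanthine dehydrogenase, had 10.35 FPKM under PBS and 13.08 under oxalate. Cyba, the p22phox subunit of NADPH oxidases, was at 73.17 and 74.83 FPKM. Over all genes 50.6% were higher, and 4 genes are too few to set beside that share.

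Gpx8 acts beside the oxidative folding enzymes of the endoplasmic reticulum, of which all 12 on the list were expressed. The list held 5 higher and 7 lower genes, with a median of -0.027 and a range from -0.15 to 0.15. Hspa5, the chaperone BiP, had 329.01 FPKM under PBS and 321.9 under oxalate. P4hb and Pdia3, protein disulfide isomerases, were at 309.74 and 251.07 FPKM with PBS and at 317.5 and 241.49 with oxalate. Gpx8 at -0.10 lay within the range of this list. Of the 8 genes listed for lipid peroxidation beside Gpx4, whose roles differ, 5 were expressed, with 2 higher and 3 lower and a median of -0.015. Lpcat3 and Acsl4, which place polyunsaturated fatty acids in phospholipids, were at 21.18 and 15.01 FPKM with PBS and at 21.33 and 14.84 with oxalate. Dhodh, a mitochondrial enzyme of pyrimidine synthesis, was at 14.74 and 12.62 FPKM. The range of this list was -0.21 to 0.40, with Gch1, the first enzyme of tetrahydrobiopterin synthesis, at the upper end. Gch1 had 1 FPKM under PBS and 1.63 under oxalate, which is past 1.5-fold as a plain ratio and not with the pseudocount of 1. No other expressed gene of either list differed 1.5-fold on either scale.

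**Figure D4:**
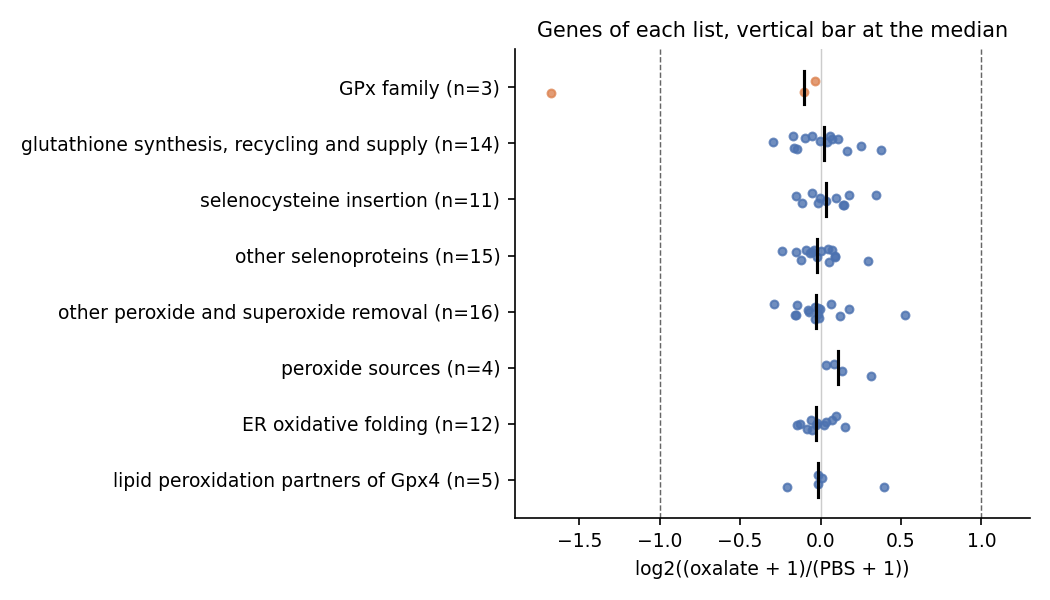
log2((oxalate + 1)/(PBS + 1)) of each expressed gene (points, spread vertically only to be seen) in the peroxidase family (orange) and 7 related lists (blue), with the median of each list as a black bar and 2-fold as dashed lines. Gpx1 at -1.68 is the 1 point beyond a dashed line.

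Among genes that averaged 5 FPKM or more, the 3 whose log2 difference was closest to that of Gpx1 over the 2 libraries were Zc3h11a, Zfx and Rnf185. Zc3h11a, a zinc finger RNA-binding protein, had 16.52 FPKM under PBS and 4.91 under oxalate (-1.57), and overlaps Zbed6, Gm38394 and a further coding gene of the same symbol on the same strand. That gene, which has no row in the table, and Gm38394, at 8.85 and 12.59 FPKM, span nearly the same bases, so the split of reads between them is uncertain. Zfx, an X-linked transcription factor, was at 11.97 and 3.54 FPKM (-1.51) and overlaps the antisense gene Gm14798. Rnf185, a ubiquitin ligase that no annotated gene overlaps, was at 10.65 and 3.16 FPKM (-1.49). These genes were far less abundant than Gpx1, and the likeness rests on 1 difference per gene.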

How the data were processed

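RNA of 4T1 cells with PBS or potassium oxalate was sequenced in 1 library each. The authors deposited FPKM values with 2 decimals. The submitters' processing notes name TopHat2 2.1.1 and Bowtie2 2.2.8. The quantification tool, genome build and annotation are not given in the sources used here. Symbols, coordinates and transcripts were taken from GENCODE M21 (GRCm38), which need not be the authors' annotation and named 21848 of 21911 identifiers.

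Differences were log2((oxalate + 1)/(PBS + 1)), described over genes that averaged 1 FPKM or more, with thresholds of 2-fold and 1.5-fold. Reads were estimated from FPKM, the mean length of coding transcripts and the step of low FPKM values in genes with 1 transcript shorter than 700 bases (82 genes for PBS, 73 for oxalate). Rounding of FPKM makes these reads estimates. A check on simulated data drew and fitted the counts with the same transcript lengths. It therefore cannot test the lengths the authors used. The members and lists were chosen with earlier results of these data known, the lists from general knowledge. Named were all members and family genes, genes overlapping a member, the listed neighbours of Gpx1, in each list the 3 most abundant genes and any that differed 1.5-fold, and the 3 genes closest to Gpx1. Some listed genes are not reported here. Selenom, Txnrd2, Txn2, Gch1 and the genes of at least 100 FPKM past 2-fold were named after their values were seen. The scripts ran on Python 3.11.15 with scipy 1.17.1 for intervals, pandas 2.3.3 and numpy 2.4.6 for the tables and matplotlib 3.10.9 for plots.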

Additional observations from a re-analysis of the deposited data

How the results depend on the processing

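No paired analysis was possible because PBS and oxalate are 1 library each, and no replicate could be left out. Other pseudocounts (0.1 and 0.001) and a rescaling of the oxalate library to a median ratio of 1 left the log2 difference of Gpx1 at -1.68, and those of Gpx3, Gpx4 and Gpx8 within the width of their counting intervals. That of Gpx2 became -1 with a pseudocount of 0.1 and -6.66 with 0.001, since 1 library is listed at 0. The counts of 1 member lower and 0 higher held at a threshold of 1.5-fold, at a mean FPKM of at least 5, with no filter and under each pseudocount and the rescaling. The median of the peroxide sources became 0 with no filter, where 8 of 17 genes are listed at 0. The pseudocounts, the rescaling, the other filters and the mean in place of the median gave 42 values for the lists. The other 41 stayed within the order-statistic interval of the main median of their list. For the lists of 4 and 5 genes that interval is their whole range and covers less than 95%. The mean of the same genes cannot leave that range, so there it was no check. The rescaling factor was 0.9995, so that setting could hardly move any median. Only 1 value changed sign: the mean of the lipid peroxidation list was 0.033, against a median of -0.015. Depth limits Gpx2, Gpx3 and Gpx7, which had at most 12 estimated reads.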
